A study of Mus musculus with 8 samples.

Results

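The semaphorins, plexins and neuropilins form a family of guidance cues and receptors. Members were all genes of the expression matrices whose symbols name a semaphorin of classes 3 to 7, a plexin of the A, B, C or D group, or a neuropilin. The rule used names only and found 31 of 32285 features, namely 20 semaphorins, 9 plexins and 2 neuropilins. Single-nucleus RNA sequencing was available from the petrous temporal bone (PTB), which houses the inner ear, and from the paraflocculus/flocculus (PF/F), cerebellar lobules of which the paraflocculus lies in a pocket of that bone. Wild-type (WT) mice and mice with 1 inactivated copy of the transcription factor gene Tbx1 (Tbx1+/-) were compared at postnatal day 5.5, all as germline genotypes with no Cre driver or treatment. Each of the 8 libraries pooled 5 mice, with 2 WT and 2 Tbx1+/- libraries per tissue, and the libraries are the replicates.

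Semaphorins are secreted (class 3), span the membrane (classes 4, 5 and 6) or are anchored to it by a lipid (class 7). Plexins are the receptors that carry the signal into the cell, where they act on small GTPases and the cytoskeleton. Most class 3 semaphorins need a neuropilin as the binding partner of a plexin-A, whereas Sema3e binds Plxnd1 directly. Sema4d binds Plxnb1, Sema6a binds Plxna2 and Plxna4, and Sema7a binds Plxnc1. In the cerebellum these genes are known for the migration and wiring of granule and Purkinje cells, and in bone for the exchange of signals between osteoblasts and osteoclasts.

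Levels are CPM, that is unique molecular identifiers (UMIs) of a gene per 1000000 UMIs of the nuclei summed. Annotated nuclei of a library held 33515253 to 43752949 UMIs in the PTB and 37700625 to 52902902 UMIs in the PF/F. Each pair of libraries shared 35 to 94 barcodes, at most 0.652% of the smaller library. Tbx1 was at 38.9 and 39.4 CPM in the PTB WT libraries and at 26.3 and 35.7 CPM in the Tbx1+/- libraries, and had 4 to 13 UMIs in any PF/F library. Osteoclasts, GNP (granule neuron progenitors), Purkinje cells, astroglia, oligodendrocytes and endothelial cells each had the highest level of their own markers in their tissue, and matured osteoblasts/osteocytes that of the osteocyte markers. CP1, annotated as a chondrocyte progenitor, had the highest osteoblast markers of all PTB types (8856 to 9692 CPM), and CP6 had the highest neuron markers (1565 to 1825 CPM). Chondrocyte progenitor markers were highest in matured chondrocytes (3046 to 6556 CPM) and not in a CP type. Osteoclasts also had the highest muscle markers of the PTB types (658 to 934 CPM). Hypertrophic markers (Col10a1, Ihh and Alpl) were highest in osteoblasts (627 to 709 CPM) and not in the class annotated as hypertrophic chondrocyte/osteoblast. Each marker level is a sum over its list, so a single gene can dominate it. The paper uses Alpl as an osteoblast marker, so this sum does not count against the label. Erythroid markers reached 11571 CPM in matured chondrocytes and 17142 CPM in PF/F endothelial cells. These types are therefore called by their annotated labels only.

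Within each tissue the question was which cell types carry which cue or receptor. Cell types were defined by clustering on the same genes, so their levels are a description with no test. Values are means ± SD over the 4 libraries of a tissue, both genotypes together. In the PTB 15 types were described, and the highest type stood clear of all other types, with no overlap of library values, for 12 of the 31 genes. In the PF/F 16 types were described and this held for 9 genes. Of the 27 PTB and 30 PF/F members with a mean of at least 5 CPM in some type these were 12 and 9, while of all genes at that level 22.7% in the PTB and 20.8% in the PF/F had such a type. A level compares types for 1 gene only, because counts that include introns rise with the length of a gene.

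Among the secreted class 3 semaphorins, Sema3d was highest in CP2 and CP1 of the bone. It was at 3497, 3936, 3545 and 3848 CPM in CP2 of WT replicates 1 and 2 and Tbx1+/- replicates 1 and 2. The next type was CP1 at 1603 ± 305 CPM (SD, n = 4), and the lowest was CP5 at 187 CPM. No library of CP1 reached any library of CP2. Sema3a, a repellent of axons that is also known to restrain osteoclasts, was highest in CP3 (503 ± 55.2 CPM, SD, n = 4) and CT1 (476 ± 66.3 CPM, SD, n = 4). Those types overlapped, and every other type was lower.

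Sema3e was likewise highest in CP3 (133 ± 22.7 CPM, SD, n = 4), with CP2 at 100 ± 10.9 CPM overlapping it. Sema3c peaked in CT1, a connective tissue type, at 400 ± 67.1 CPM (SD, n = 4) against 84.4 CPM in CT2. Sema3f was highest in CT1 (19.0 CPM) and overlapped CP5 (14.5 CPM). Sema3b was highest in osteoblasts (18.8 ± 5.00 CPM, SD, n = 4) and overlapped 4 other types, while Sema3g stayed at or below 2.08 CPM in all 15 types. Sema3a, Sema3c, Sema3d and Sema3e lie near each other on chromosome 5 (GRCm38 chr5:12383385-17730268, from the start of Sema3d to the end of Sema3c), yet had their highest levels in 3 different PTB types.

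Matured osteoblasts/osteocytes were the highest PTB type for the membrane-spanning Sema5a and Sema6d and the lipid-anchored Sema7a. Sema5a was at 2044, 2577, 2290 and 2240 CPM in matured osteoblasts/osteocytes of WT replicates 1 and 2 and Tbx1+/- replicates 1 and 2. The next type, hypertrophic chondrocyte/osteoblast, was at 953 ± 33.2 CPM (SD, n = 4). Sema6d was at 643 to 753 CPM in the 4 matured osteoblast/osteocyte samples, against 242 CPM in CP5. Sema7a was also highest there, at 154 ± 23.5 CPM (SD, n = 4), against 99.8 CPM in hypertrophic chondrocyte/osteoblast. Sema6a ran the other way. It was highest in CP5 (362 ± 28.2 CPM, SD, n = 4), overlapped CT4 (345 CPM), and was lowest in matured osteoblasts/osteocytes (39.8 CPM).

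Sema4d, known as a signal from osteoclasts to osteoblasts, was highest in osteoclasts at 410, 435, 499 and 452 CPM in WT replicates 1 and 2 and Tbx1+/- replicates 1 and 2. Matured osteoblasts/osteocytes followed at 350 ± 28.6 CPM (SD, n = 4) and osteoblasts at 297 CPM. The remaining 12 types lay between 27.7 and 83.7 CPM. Sema4b was highest in osteoblasts (23.3 CPM), Sema4c in CT4 (26.0 CPM), Sema4g in CP5 (14.9 CPM), Sema5b in CP4 (24.0 CPM), Sema6c in CP6 (19.2 CPM) and Sema6b in osteoclasts (6.16 CPM). Of these 6 genes, Sema5b had a highest type that no other type overlapped. Sema4a and Sema4f stayed under 5 CPM in every PTB type.

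Plxna4 was at 540, 609, 598 and 604 CPM in osteoclasts of WT replicates 1 and 2 and Tbx1+/- replicates 1 and 2, against 190 ± 21.9 CPM in CT3 (SD, n = 4) and 16.9 CPM in matured osteoblasts/osteocytes. Nrp2 was also highest in osteoclasts, at 1866 ± 98.6 CPM (SD, n = 4), and osteoblasts came next at 1279 ± 63.2 CPM. Plxnd1, the receptor of Sema3e, was highest in osteoclasts (105 ± 15.3 CPM, SD, n = 4) and overlapped hypertrophic chondrocyte/osteoblast (80.0 CPM). Nrp1 was highest in CT4 (1064 ± 161 CPM, SD, n = 4), where its values of 885 to 1246 CPM exceeded those of every other type.

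Plxna2 was highest in hypertrophic chondrocyte/osteoblast (686 ± 102 CPM, SD, n = 4), followed by CT4 at 481 CPM. Plxnb1, the receptor of Sema4d, was at 89.8 to 104 CPM in matured chondrocytes and at 52.2 CPM in CT4, and it was lowest in osteoclasts, at 7.9 to 12.5 CPM. Ligand and receptor of this pair thus had opposite extremes in the osteoclast, the highest level for Sema4d and the lowest for Plxnb1. Osteoclasts were also the lowest PTB type for Sema3g, Sema4b, Sema4c, Sema4g, Sema5a, Sema6c and Plxna3, so a low level there is not particular to this pair. Plxnb2 was highest in matured chondrocytes (83.8 CPM) and Plxnc1, the receptor of Sema7a, in CT2 (35.8 CPM) and CP3 (35.5 CPM). Plxna1 (at most 31.0 CPM, in CT3) and Plxna3 (at most 10.8 CPM, in CP2) were lowest at 14.4 CPM (CP6) and 4.31 CPM (osteoclasts), and Plxnb3 did not exceed 2.52 CPM.

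**Figure D1:**
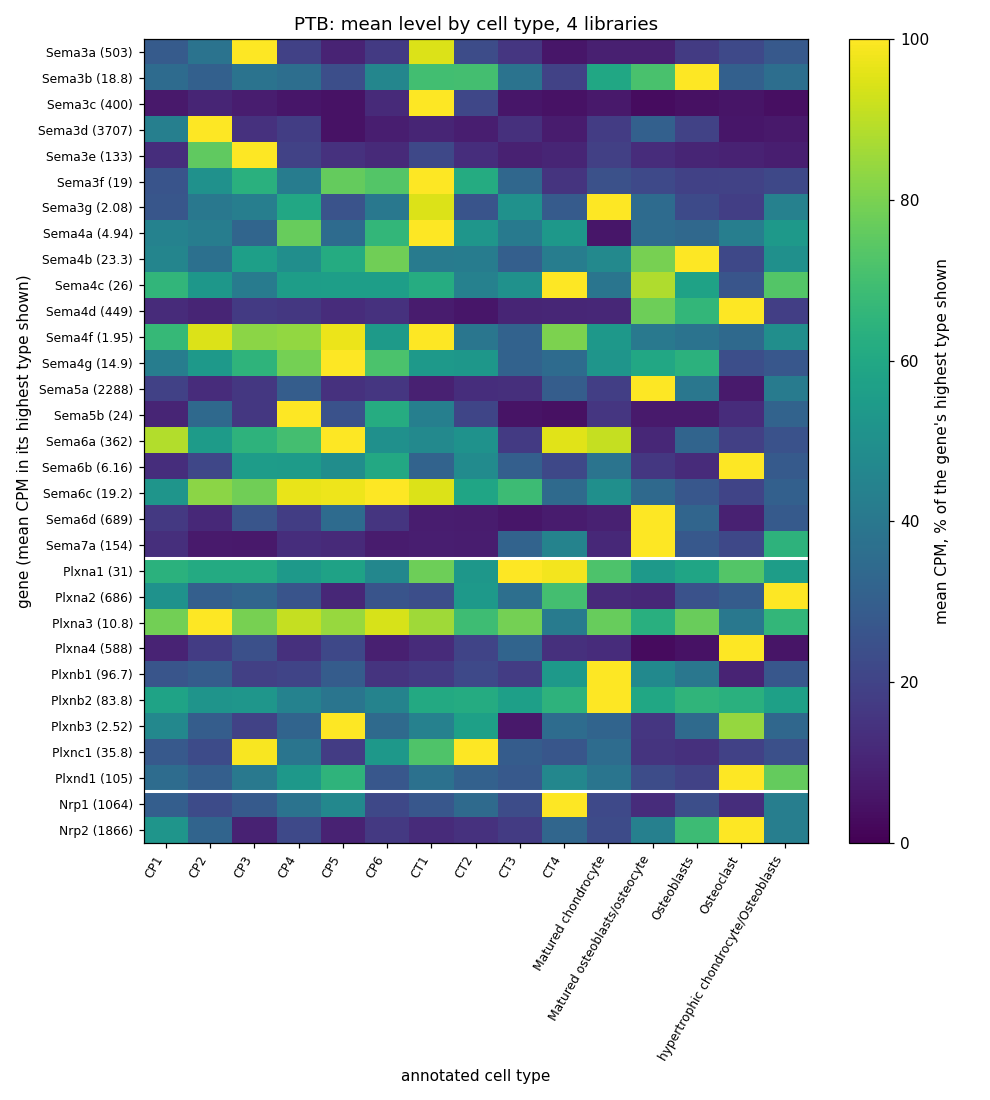
Mean level of each gene (rows, semaphorins above plexins above neuropilins, with the mean CPM of the highest type) in the 15 annotated PTB types (columns), as a percent of the gene's highest type over 4 libraries. Bright cells for Sema5a, Sema6d and Sema7a fall in matured osteoblasts/osteocytes, and those for Plxna4, Nrp2, Sema4d and Plxnd1 in osteoclasts.

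Among the secreted class 3 cues of the PF/F, Sema3c had a highest type that no other type overlapped. Sema3a was at 297, 387, 349 and 444 CPM in Purkinje cells of WT replicates 1 and 2 and Tbx1+/- replicates 1 and 2. Meningeal cells came next at 282 ± 31.1 CPM (SD, n = 4) and overlapped the Purkinje range. Sema3f was also highest in Purkinje cells (24.5 ± 5.88 CPM, SD, n = 4). Sema3d in differentiated granule neurons was at 156 ± 17.3 CPM (SD, n = 4), and it was lowest in Purkinje cells (8.38 CPM). Sema3c was highest in GABA interneurons (39.9 ± 7.16 CPM, SD, n = 4). Sema3e was highest in the type labelled RL.early (27.5 ± 6.52 CPM, SD, n = 4), as was Sema3b (4.01 CPM), and Sema3g was highest in endothelial cells (12.4 ± 9.31 CPM, SD, n = 4), which had 15 to 65 nuclei per library.

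Oligodendrocytes, the myelinating lineage, were the highest type for Sema5a, Sema5b, Sema4d and Plxnb3. Plxnb3 was at 42.7, 52.8, 40.7 and 59.5 CPM there in WT replicates 1 and 2 and Tbx1+/- replicates 1 and 2. The next type, astroglia, was at 4.86 ± 1.04 CPM (SD, n = 4), and no other member stood as far above its next type in any tissue. Sema5a was at 662 ± 149 CPM (SD, n = 4) in oligodendrocytes and at 250 ± 68.3 CPM in pericytes, a small type of 12 to 25 nuclei per library. Sema5b was at 279 ± 24.9 CPM (SD, n = 4) in oligodendrocytes against 162 CPM in astroglia. Sema4d was at 114 ± 24.4 CPM (SD, n = 4) and overlapped immune cells (90.7 CPM). Sema6d was highest in astroglia (1933 ± 258 CPM, SD, n = 4) and overlapped oligodendrocytes (1522 CPM), and Plxnb1 (53.1 CPM) and Sema4b (45.8 CPM) were highest in astroglia as well, each overlapping at least 1 other type.

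GNP were the highest type for Plxnb2, Plxnc1 and Sema7a. Plxnb2, known for its part in the development of granule cells, was at 216, 277, 244 and 261 CPM in GNP of WT replicates 1 and 2 and Tbx1+/- replicates 1 and 2, against 133 CPM in pericytes. Sema7a was at 118 ± 8.99 CPM (SD, n = 4), against 63.0 ± 33.3 CPM in endothelial cells. Its receptor Plxnc1 was at 170 ± 16.9 CPM (SD, n = 4) and overlapped differentiated granule neurons (154 CPM) and 1 further type. GNP were the lowest type for Plxna4 (7.71 CPM), Plxna1 (5.45 CPM), Nrp1 (11.1 CPM) and Nrp2 (3.98 CPM).

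Plxna4 was highest in the small type labelled Progenitors (728 ± 59.6 CPM, SD, n = 4, 20 to 72 nuclei per library) and next in GABA interneurons (599 ± 44.0 CPM). Plxna2 was highest in GABA interneuron progenitors (485 ± 46.7 CPM, SD, n = 4), next in differentiated granule neurons (314 CPM) and lowest in Purkinje cells (19.2 CPM). Sema6a, its ligand, was at 1208 ± 165 CPM (SD, n = 4) in endothelial cells and at 1013 ± 87.4 CPM in differentiated granule neurons, which overlapped, and it too was lowest in Purkinje cells (112 CPM). Nrp1 was at 439 ± 72.2 CPM (SD, n = 4) in immune cells. Plxnd1, a receptor of blood vessels, was at 157 ± 31.0 CPM (SD, n = 4) in endothelial cells and at 25.2 ± 41.2 CPM in pericytes, which had few nuclei. No other type overlapped the endothelial values. Nrp2 was highest in endothelial cells (184 ± 83.8 CPM, SD, n = 4) with 3 overlapping types. Plxna1, Plxna3, Sema4a, Sema4c, Sema4f, Sema4g, Sema6b and Sema6c had highest levels of 17.7 to 46.6 CPM that other types overlapped.

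**Figure D2:**
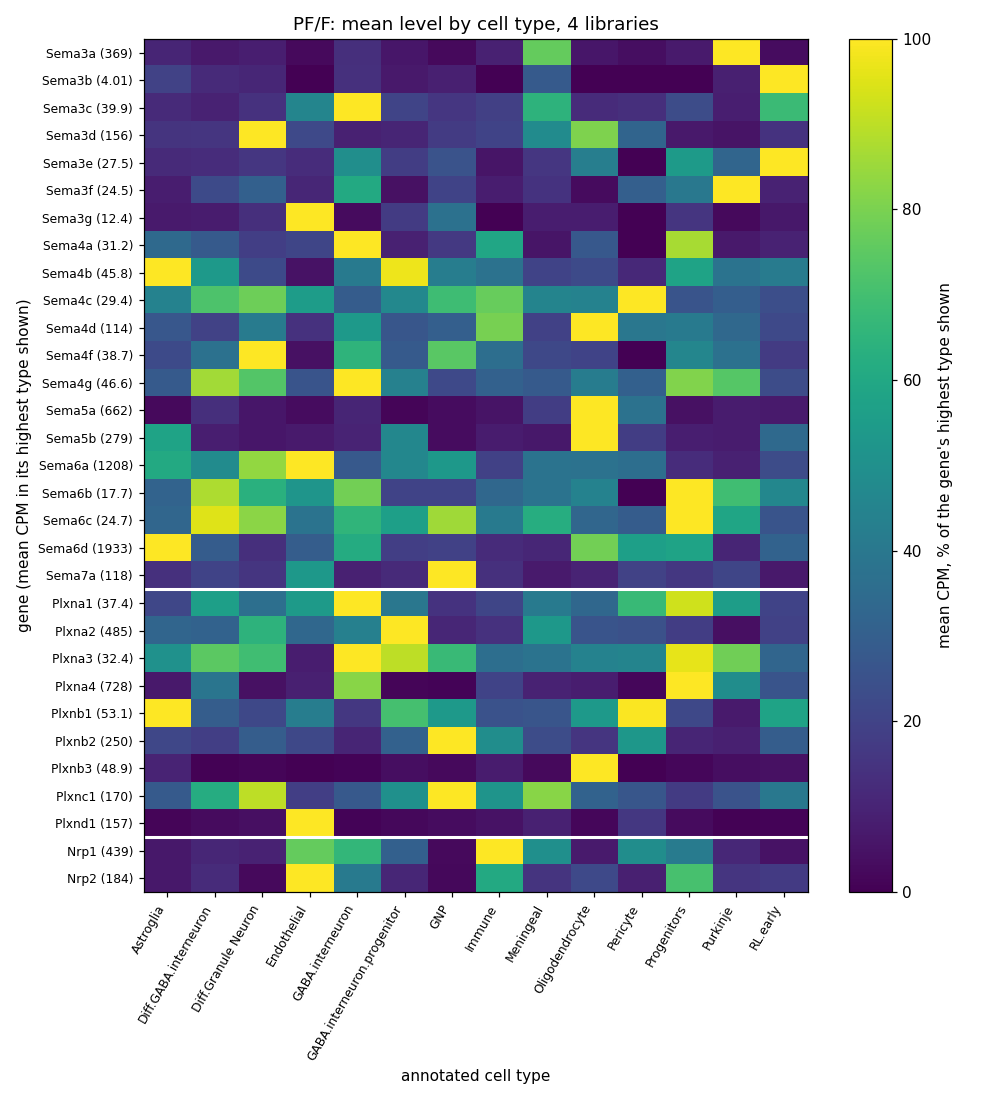
Mean level of each gene (rows) in 14 of the 16 annotated PF/F types (columns), as a percent of the gene's highest type among those shown over 4 libraries, with that type's mean CPM beside the name. Plxnb3 is bright in oligodendrocytes only, Plxnd1 in endothelial cells, and Plxna4 is dark in GNP and in GABA interneuron progenitors.

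The pairs of genes with the most alike profiles were found from the correlation of log2(mean CPM + 1) across types, among genes with at least 5 CPM in some type. These types share libraries and their depth, so the values are given as a description. Across the 15 PTB types they were Sema3f with Sema6c (Pearson r 0.867), Plxna3 with Sema6c (0.790), Sema5a with Sema6d (0.725), Sema4b with Sema6d (0.721) and Sema5a with Sema7a (0.714), of 27 genes compared. Across the 16 PF/F types they were Plxna4 with Sema6b (0.779), Sema4f with Sema6c (0.751), Plxna3 with Sema4b (0.695), Plxna1 with Sema4g (0.685) and Sema4f with Sema6b (0.683), of 30 genes. No pair was among the highest in both tissues.

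Pairs of annotated types whose labels follow each other in a lineage were then set side by side in each library. The order is that of the labels and was not tested, and the pairs were chosen after their levels were seen. Counted were genes with a mean of at least 5 CPM over the pair that differed by over 2-fold, in the same direction, in 4 of 4 libraries. From GNP to differentiated granule neurons, 8 of 27 members were higher and 3 lower, while of all 12407 genes 7.42% were higher and 11.4% lower. Plxna2 was at 50.8, 51.2, 49.9 and 52.9 CPM in GNP and at 286, 341, 296 and 333 CPM in differentiated granule neurons, for WT replicates 1 and 2 and Tbx1+/- replicates 1 and 2. This was a mean log2 ratio of 2.60 ± 0.11 (SD, n = 4). Sema3d (2.51 ± 0.16), Plxna4 (2.08 ± 0.28), Nrp1 (1.90 ± 0.27), Sema4g, Sema3a, Sema6b and Plxna1 were higher as well.

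The genes lower in differentiated granule neurons were Sema7a, at 112 to 132 CPM in GNP and 15.0 to 21.3 CPM in the neurons (mean log2 ratio -2.68 ± 0.24, SD, n = 4), Plxnb2 (-1.76 ± 0.12) and Plxnb1 (-1.28 ± 0.07). All members counted as higher that are receptors were plexin-A genes or Nrp1, and the receptors counted as lower were plexin-B genes. The plexin-A gene Plxna3 differed little, at 22.0 CPM in GNP and 22.4 CPM in the neurons (mean log2 ratio 0.03 ± 0.12). Plxnc1 and Sema6d did not reach the 2-fold limit.

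From GABA interneuron progenitors to differentiated GABA interneurons, 4 of 25 members were higher and 3 lower, against 6.9% and 8.37% of all 12623 genes. Plxna4 was at 13.3, 8.7, 8.2 and 11.0 CPM in the progenitors and at 221, 363, 241 and 305 CPM in the interneurons of WT replicates 1 and 2 and Tbx1+/- replicates 1 and 2, a mean log2 ratio of 4.71 ± 0.53 (SD, n = 4). Sema5a (3.33 ± 0.40), Sema6b and Sema4a were also higher. Sema5b (-2.42 ± 0.33), Plxna2 (-1.66 ± 0.22) and Nrp1 (-1.52 ± 0.31) were lower. Plxna2 and Nrp1 thus differed in opposite directions along the granule and the GABA interneuron pairs, and Plxna4 in the same direction.

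In the bone, 3 of 24 members were higher and 2 lower in osteoblasts than in hypertrophic chondrocyte/osteoblast, against 1.98% and 4.17% of all 12206 genes. Sema4d (mean log2 ratio 1.82 ± 0.03, SD, n = 4), Sema3d (1.55 ± 0.21) and Sema3b (1.43 ± 0.22) were higher, and Plxna2 (-1.99 ± 0.15) and Plxnd1 (-1.93 ± 0.14) were lower. From osteoblasts to matured osteoblasts/osteocytes, 3 of 24 members were higher and 1 lower, against 1.98% and 1.14% of all 11844 genes. Sema7a (1.85 ± 0.32), Sema6d (1.61 ± 0.11) and Sema5a (1.33 ± 0.07) were higher, and Sema6a (-1.56 ± 0.40) was lower. No member was counted in both bone pairs, but Sema7a missed the limit in the first pair only through Tbx1+/- replicate 2. In that pair its log2 ratios were -1.32 and -1.34 in WT and -1.33 and -0.95 in Tbx1+/-.

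**Figure D3:**
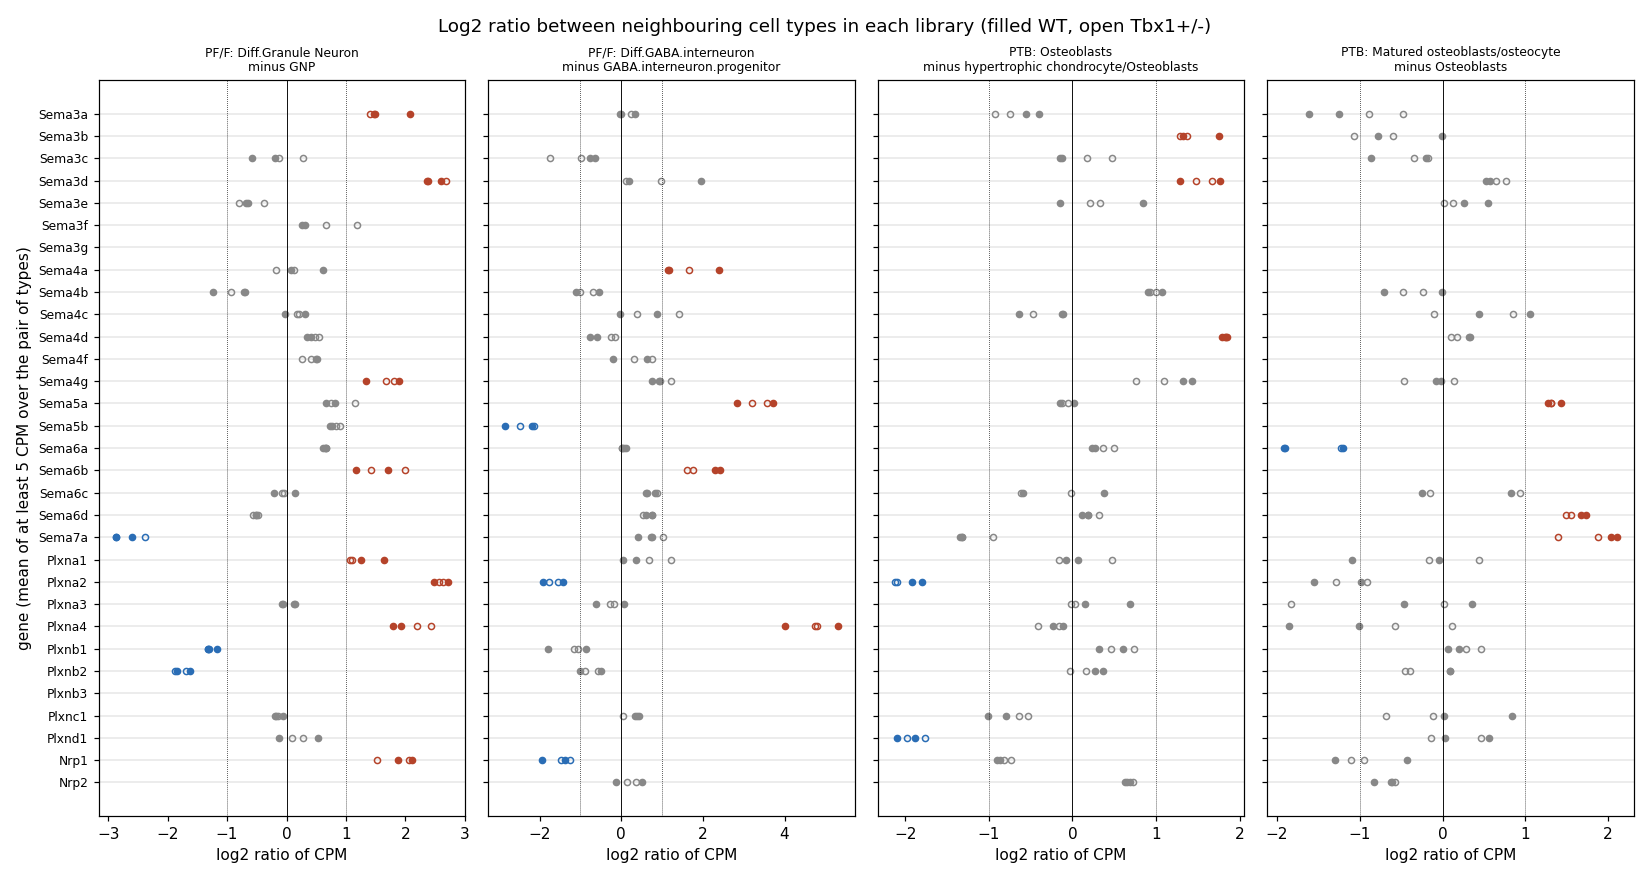
Log2 ratio of CPM between neighbouring annotated types in each library (filled points WT, open points Tbx1+/-, dotted lines 2-fold), with genes over 2-fold higher in all 4 libraries in red and lower in blue. The 4 libraries of a tissue lie close together for most coloured genes, for example Plxna2, for which all 4 granule ratios are near 2.6 and all 4 GABA interneuron ratios are below -1.

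The tissues themselves were compared on UMIs summed over all annotated nuclei, since tissue is a label of the libraries. In such sums, more nuclei of a type and more RNA per nucleus cannot be told apart. With edgeR's quasi-likelihood test, a gene was called at a Benjamini-Hochberg adjusted p under 0.05 over all genes and a difference above 1.5-fold. Of the 31 members 24 were called, 10 higher in the PTB and 14 lower. Among all 21176 genes tested 60.5% were called, 28.0% higher and 32.4% lower, so many calls are the background of this comparison. The median size of the log2 difference was 1.74 for the members and 0.84 for all genes.

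Among the receptors, Nrp2 had the largest difference. It was at 692, 796, 828 and 835 CPM in the PTB and at 17.2, 18.5, 15.0 and 19.3 CPM in the PF/F, for WT replicates 1 and 2 and Tbx1+/- replicates 1 and 2 (log2 difference 5.47, SE 0.14, edgeR adjusted p = 2.17e-09). Nrp1 was at 310 to 336 CPM against 47.0 to 79.2 CPM (2.29, SE 0.17), and Plxnd1 at 39.6 to 50.9 CPM against 4.55 to 5.92 CPM (3.07, SE 0.13). The neuropilins and Plxnd1 were therefore higher in all 4 bone libraries than in any cerebellar library. Plxnc1 was lower in the PTB, at 9.75 to 13.7 CPM against 107 to 124 CPM (-3.31, SE 0.13), and Plxnb3, Plxna3 and Plxnb2 were called lower too. Plxna1, Plxna2, Plxna4 and Plxnb1 were not called.

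Of the 7 class 3 semaphorins 5 were called higher in the PTB. Sema3d was at 873, 997, 856 and 997 CPM in the PTB libraries and at 71.9 to 86.5 CPM in the PF/F (log2 difference 3.52, SE 0.12). Sema3b had the largest difference of the class, at 7.41 to 12.9 CPM against 0.29 to 0.71 CPM (4.21, SE 0.29), with 92 UMIs in all PF/F libraries together. The difference of Sema3c was 2.93 with an SE of 0.45. Its PTB libraries were at 72.9 and 48.3 CPM (WT) and 62.4 and 20.9 CPM (Tbx1+/-). These libraries had 1315 and 332 (WT) and 878 and 118 (Tbx1+/-) CT1 nuclei, and levels and numbers fell in the same order. Within CT1 the gene was at 384, 491, 394 and 329 CPM in the same libraries.

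Sema3a (1.59) and Sema3e (2.45) were called higher too, Sema3f was not called, and Sema3g was called lower on 122 PTB and 309 PF/F UMIs. All 4 class 6 semaphorins were called lower in the PTB. Sema6a was at 166 to 176 CPM against 649 to 754 CPM (-2.06, SE 0.10) and Sema6d at 144 to 171 CPM against 600 to 662 CPM (-2.03, SE 0.10). Of the 6 class 4 genes, Sema4d was higher (1.75, SE 0.10), Sema4c was not called and the other 4 were lower, with Sema4f the furthest (1.90, 0.72, 1.36 and 1.00 CPM against 23.9 to 26.7 CPM, log2 difference -4.31, SE 0.24). The class 5 genes diverged, since Sema5a was higher (3.22, SE 0.14) and Sema5b lower (-3.11, SE 0.08) in the PTB. Sema7a was not called (0.21, SE 0.11, adjusted p = 0.11).

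The PTB annotation covers skeletal types only and leaves 32101 of 63177 barcodes without a label, against 9721 of 57958 in the PF/F. With all barcodes summed, 23 members were called, 12 higher and 11 lower, while 58.3% of all 22505 genes were called, 29.5% higher and 28.9% lower. Plxnb3 then differed by 0.04 in place of -1.71 and Sema3g by 0.11 in place of -1.18, Sema4b also lost its call (-0.29), and Plxna4 (0.65) and Sema3f (0.72) were called higher in the PTB. Sema4b also missed the fold limit without PTB WT replicate 1 (-0.56). In the unlabelled barcodes, 2 of the 31 members in the PTB (Sema4f and Plxnb3) and none in the PF/F were above every annotated type in 4 of 4 libraries, against 5.71% and 0.0172% of genes with a mean of at least 1 CPM there.

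**Figure D4:**
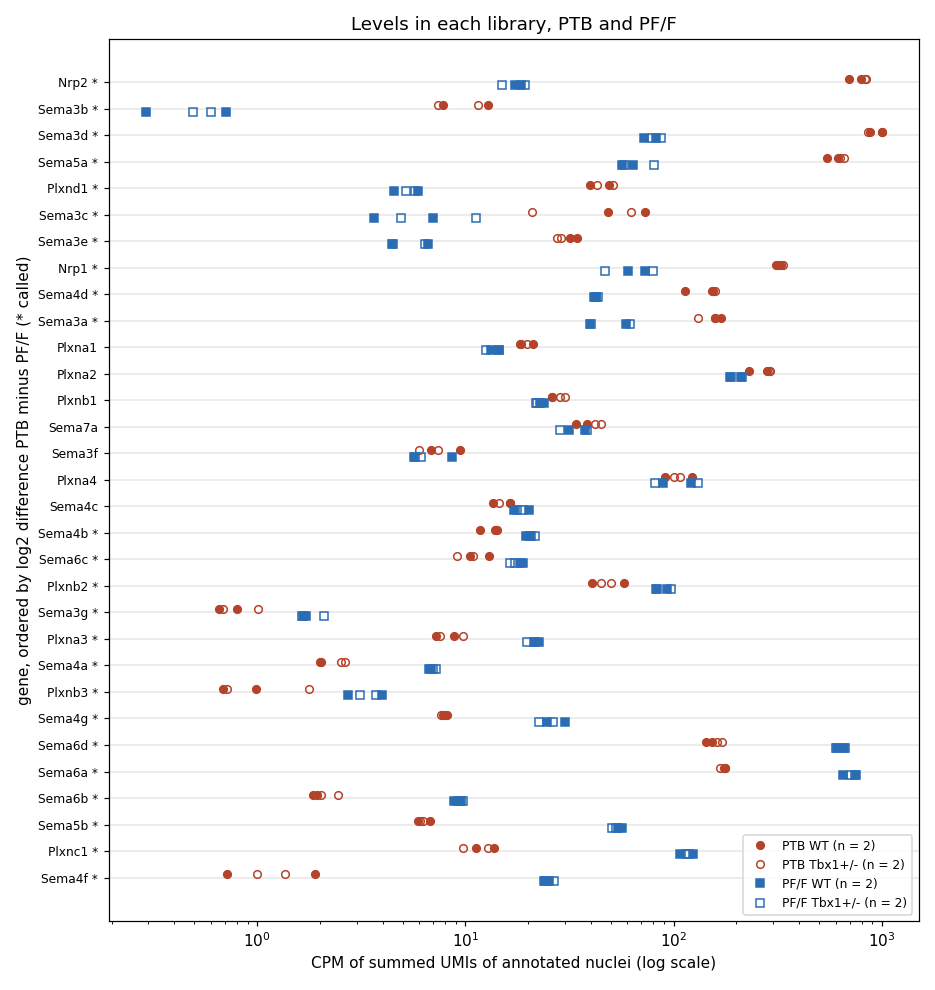
Level of each gene in each of the 8 libraries (circles PTB, squares PF/F, filled WT, open Tbx1+/-, log axis in CPM), ordered by the fitted log2 difference PTB minus PF/F, with called genes starred. Circles and squares are apart for 28 of the 31 genes, as they were for 74.9% of all genes at 1 CPM or more.

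A list of 32 partners and effectors of the family was tested in the same fit, and 17 were called higher in the PTB and 8 lower, against 28.0% and 32.4% of all genes. Higher were the receptor tyrosine kinases Met (4.59, SE 0.12), Erbb2 and Kdr, the ligand Vegfa, the plexin-binding exchange factors Arhgef11 and Arhgef12, the kinase Fes (3.63, SE 0.16), Farp2 (3.12, SE 0.11), the integrins Itga1 and Itgb1, the oxidoreductases Mical1, Mical2 and Mical3, and the GTPases Rras, Rap1a, Rhoa and Rnd1. Lower were the neural adhesion molecules Nrcam (-4.78, SE 0.13), L1cam (-4.59, SE 0.20) and Chl1, the collapsin response mediators Dpysl5 (-5.22, SE 0.19), Crmp1 (-5.15, SE 0.19), Dpysl4 and Dpysl2, and the GTPase Rnd2. Dpysl3, Farp1, Fyn, Cdk5, Gipc1, Rac1 and Rnd3 were not called. With all barcodes summed, Arhgef11 fell below the fold limit (0.49 in place of 0.67), and the other 24 calls remained.

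The genotypes were compared within each type or class, which addresses whether loss of a Tbx1 copy changes the cues or receptors of any cell type. In 7 PTB classes and 13 PF/F types, 479 tests were made on members, and each fit tested 11 to 31 of them. None was called with edgeR, at a smallest adjusted p of 1.00, and none with DESeq2. Over the same fits 1 of 252203 tests of all genes was called (0.000397%), in Purkinje cells (0.00778% of the genes tested there) and not on a member. At an unadjusted p under 0.05, edgeR gave 8 member tests (1.67%) against 1.4% of all tests, and DESeq2 gave 0 against 0.182%. A calibrated test without any difference would give a share near 0.05, so these fits were conservative. They had no batch term, although differences between replicates 1 and 2 correlated between the genotypes (0.566 in the PTB, 0.738 in the PF/F). With the batch as a block, the share of all tests was 4.38%. The lack of calls thus does not show that no member differs. The median size of the members' log2 difference was above that of all genes in 10 of the 20 fits. With 2 libraries per group, an exact permutation test cannot go below p = 0.33.

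The 8 tests each concerned a different gene and type, and the values of 7 are given. All 8 moved the same way in both batches. A small p with 2 libraries per group nearly requires this, so it is no further support. In osteoclasts, Sema5a was at 142 and 131 CPM in WT and at 199 and 179 CPM in Tbx1+/- (log2 difference 0.46, SE 0.13, unadjusted p = 0.0092 in edgeR's model across all genes, adjusted p = 1.00). The genotypes did not overlap. Osteoclasts were the lowest of the 15 PTB types for this gene (mean 163 CPM, against 2288 CPM in matured osteoblasts/osteocytes). The part of free RNA from other types in this low level was not tested. In matured osteoblasts/osteocytes, Plxnb2 was at 73.1 and 49.0 CPM in WT and 43.2 and 34.8 CPM in Tbx1+/- (-0.70, SE 0.27). In matured chondrocytes, Sema3a was at 29.2 and 29.1 CPM in WT and 59.9 and 57.2 CPM in Tbx1+/- (1.00, SE 0.39), on 10 to 49 UMIs per library, and erythroid markers in these nuclei ranged from 821 to 11571 CPM, whose part in the value was not tested.

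In the class of all CT nuclei, Sema7a was at 25.4 and 23.5 CPM in WT and at 30.1 and 42.1 CPM in Tbx1+/- (0.56, SE 0.22). The share of CT1, which was low in Sema7a (10.2 to 17.8 CPM), differed between libraries, as the CT1 counts above show, and its part in the value was not tested. Within CT4 alone it was at 62.1 and 51.8 CPM in WT and 84.4 and 78.1 CPM in Tbx1+/-. Within CT1, CT2 (7.07 to 18.3 CPM) and CT3 (33.9 to 60.6 CPM) the genotypes overlapped.

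In the PF/F, Sema3f in GNP was at 5.44 and 7.36 CPM in WT and at 3.22 and 3.80 CPM in Tbx1+/- (-0.84, SE 0.30). Sema4b in Purkinje cells was at 13.1 and 15.2 CPM in WT and 20.2 and 21.5 CPM in Tbx1+/- (0.58, SE 0.26), and Sema3d in immune cells rested on 5 to 24 UMIs per library (1.25, SE 0.53). None of these passed the adjustment over all genes.

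With the batch as a replicate block, 38 of the 479 member tests had an unadjusted p under 0.05, and again none was called. This was a larger share than the 4.38% of all tests. Member tests share genes and libraries, and the difference between the shares was not tested. Over all genes the block gave 109 calls (0.0432%) in place of 1, of which 24 were in CT (0.151% of the genes tested there). The smallest adjusted p of a member was then 0.21, for Sema3c in CT (log2 difference -0.82, SE 0.22), where Tbx1+/- replicate 2 stood apart at 62.9 CPM beside 251, 189 and 223 CPM. That library also had the fewest CT1 nuclei, the type highest in Sema3c, at 118 beside 1315, 332 and 878, and the part of this make-up in the value was not tested. The smallest unadjusted p of a member with the block was that of the same gene in astroglia, in the opposite direction (1.23, SE 0.33, unadjusted p = 0.00069 and adjusted p = 0.79 in edgeR's model across all genes), at 3.84 and 1.78 CPM in WT and 10.5 and 2.62 CPM in Tbx1+/- on 9 to 68 UMIs per library. Sema3c in differentiated granule neurons was also positive (0.71, SE 0.19). Without the block, both had an unadjusted p above 0.05. Without the block, no partner or effector was called in 515 tests, and 8 tests had an unadjusted p under 0.05, where 1.4% of all tests did. They were of Farp2, Fyn and Mical3 in osteoclasts, Farp2 and Dpysl2 in matured chondrocytes, Rnd1 in osteoblasts, Itga1 in GABA interneuron progenitors and Rnd2 in meningeal cells.

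The interaction of tissue and genotype asks whether a member's genotype difference differed between bone and cerebellum. It was called for none of the 31 members nor for any of 22148 genes (0.0%), with edgeR or DESeq2. The smallest unadjusted p of a member was 0.16, for Plxnb1, and 199 genes had an unadjusted p under 0.05 with edgeR and 101 with DESeq2.

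**Figure D5:**
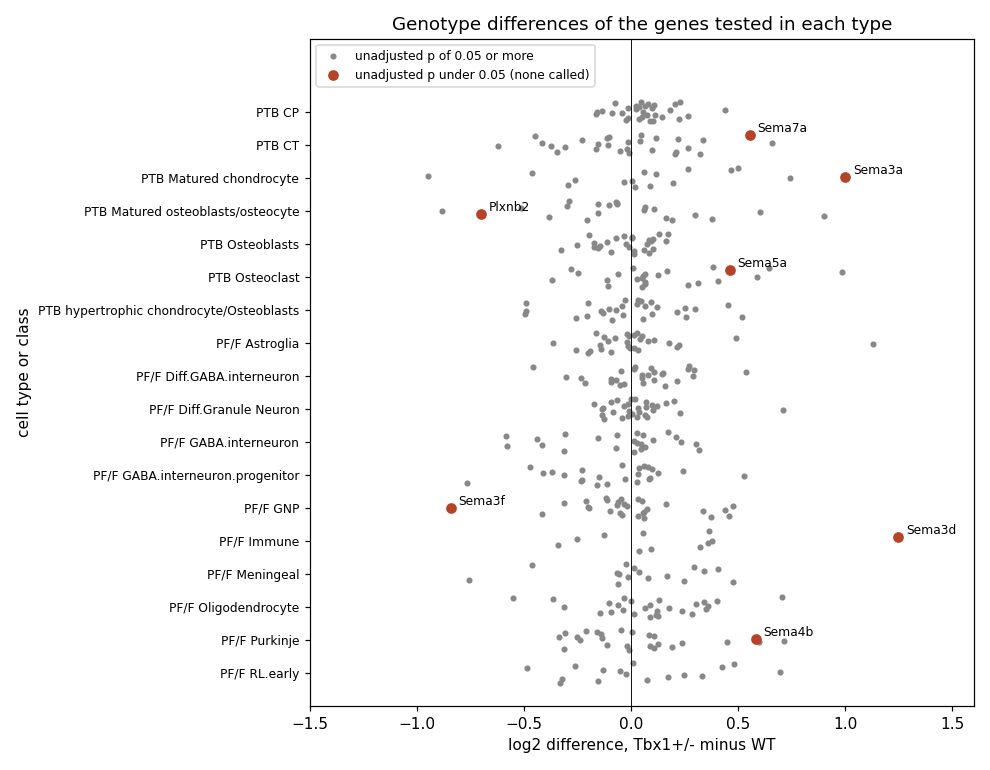
Log2 difference Tbx1+/- minus WT (horizontal axis) of each member tested in each of the 7 PTB classes and 11 of the 13 PF/F types (rows), with 7 of the 8 tests at an unadjusted p under 0.05 named in red. Most points lie within 0.5 of 0, and none was called after adjustment over all genes.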

How the data were processed

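Nuclei of the PTB and PF/F of P5.5 mice were profiled with droplet 3′ sequencing. The deposited counts are whole UMIs for each gene in each filtered barcode; the authors counted them on mm10 with Cell Ranger 7.0.0, introns included. The authors' later quality limits and SoupX correction for free RNA are not in these counts, so low levels can include free RNA. Doublets were not removed here. Cell type labels were taken from the annotation that the authors deposited, and values of 2 of the 16 PF/F types stayed in the fits and counts but are not reported here. UMIs were summed per library and type (at least 10 nuclei in each library for levels, 40 for tests, and CT1 to CT4 and CP1 to CP6 each as 1 class in tests) and scaled to 1000000. Sums were compared with edgeR 4.0.16 (filterByExpr, TMM) in R 4.3.3, with DESeq2 1.42.0, RLE factors, no filter, a replicate block, fewer nuclei (without the 8% with the most UMIs, or with at least 2000 genes) and each library left out as alternatives. Both tools were tested on simulated data. Python 3.11.15 was used for sums.

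Coordinates are those of GENCODE vM21 (GRCm38). Replicate numbers stand for the batches the study describes. As a check, differences between replicates 1 and 2 in WT and Tbx1+/- correlated across genes at 0.566 (PTB) and 0.738 (PF/F). The labels do not say more on how pools were formed, so p-values measure the spread between these pools. By the paper's description, the PTB and PF/F libraries of a genotype and batch may come from the same mice. The main tissue and interaction fits treated all libraries as independent. The members, the lists of partners and markers and the tests were chosen with earlier results of these data known, and the 4 pairs of neighbouring types were chosen after their levels were seen. Named were all members, with the highest type or only a level or range of levels, and with the next type for some. Between genotypes, members called were to be named, or up to 5 per class with the smallest unadjusted p under 0.05 that moved one way in both batches. The 5 most alike pairs per tissue, and partners called or with small p, were named too. Profiles used a pseudocount of 1 and ratios between types one of 0.5.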

Additional observations from a re-analysis of the deposited data

Results flagged for a closer look

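Barcodes without a cell type label, which the comparisons leave out, carried Sema4f and Plxnb3 in the PTB above every annotated type. Sema4f averaged 5.26 CPM (5.21 to 5.32 CPM, n = 4 libraries, 769 UMIs) in unlabelled PTB barcodes, above the level of all 15 annotated types in each of the 4 libraries, whose highest mean was 1.95 CPM. Plxnb3 averaged 6.11 CPM (4.52 to 8.25 CPM, n = 4 libraries, 901 UMIs), against a highest annotated mean of 2.52 CPM, also in 4 of 4 libraries. Of all 18062 genes with a mean of at least 1 CPM in the unlabelled PTB barcodes, 5.71% were likewise above every annotated type in 4 of 4 libraries. The share among the members was close to this, so the result is not particular to the family. Sema4a (5.63 CPM against 4.94 CPM) and Sema3g (3.37 CPM against 2.08 CPM) were so in 3 of 4 libraries. No member was so in 4 of 4 libraries of the PF/F, where 0.0172% of genes were. In the PTB these barcodes include nuclei that the paper kept and assigned to other types, such as immune cells and neurons. They also include barcodes that the authors filtered out. In the PF/F the 48237 labelled nuclei are all that the paper kept, so the unlabelled barcodes there are those filtered out. The cell types of unlabelled barcodes were not examined.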

How the results depend on the processing

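No member was called between genotypes under RLE factors, no filter, DESeq2, the replicate block or fewer nuclei, and the block changed no call of a member in the tissue comparison or the interaction. Over all genes in the same fits, 1 call became 109 with the block, 67 without the filter, 2 with DESeq2, 1 with RLE factors, 1 in nuclei with at least 2000 genes and 0 without the nuclei with the most UMIs. Leaving out 1 library gave between 0 and 1 member called in each of 4 PF/F types, in place of 0: without WT replicate 1, Sema3c in differentiated granule neurons (1.54, adjusted p = 0.0083), Sema6d in immune cells (1.59) and Plxna4 in meningeal cells (-1.38), and without Tbx1+/- replicate 2, Sema3c in astroglia (1.84). In those fits 39, 25, 47 and 3 genes were called in all. The lone library of a group is then assumed to vary like the other group. The interaction had no call under any alternative.

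In the tissue comparison 23 to 25 members were called. With all barcodes Plxnb3 reversed to 0.037, Sema3g to 0.11 and Sema7a to -0.063. Sema3f reversed to -0.12 in nuclei with at least 2000 genes, where Plxna2 was called (0.59). Plxna4, at -0.02, turned to 0.0068 with RLE factors, 0.0070 with DESeq2, 0.00058 without the filter, 0.0050 with the block, 0.37 without the nuclei with the most UMIs and 0.65 with all barcodes. It ranged from -0.16 to 0.14 when a library was left out, with a positive sign without PF/F WT replicate 2, PF/F Tbx1+/- replicate 2, PTB WT replicate 1 or PTB Tbx1+/- replicate 1. The causes were not tested.

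The highest type changed for genes whose leading types overlap, and 15 of 434 levels moved by more than 1 SD. The 434 include levels with 1 library left out, which cannot move a mean of 4 libraries by 1 SD. All 15 therefore came from the settings with fewer nuclei or from means of each nucleus's own CPM, and the share understates how often those settings moved a level. In alternatives chosen after seeing the data, members lower in osteoblasts than in hypertrophic chondrocyte/osteoblast ranged from 2 to 4 when a library was left out, with 4 without PTB Tbx1+/- replicate 2, and those lower in matured osteoblasts/osteocytes were 2 in place of 1 without the nuclei with the most UMIs. Genotype values rest on 2 pooled libraries per group.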
